A study of Rattus norvegicus with 4 samples.

Results

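The genes described here carry steroid synthesis in the testis, from the receptor that starts it and the uptake of cholesterol to testosterone and the handling of neighbouring steroids. They were 10 named genes: Lhcgr, Scarb1, Tspo, Star, Cyp11a1, Fdx1, Cyp17a1, Hsd17b3, Srd5a1 and Hsd11b1. Every probe set that the platform annotation paired with exactly 1 of these symbols was taken, whatever its values, which gave 17 probe sets of 9 genes among the 4736 genes with a single symbol on the array. No probe set was paired with Srd5a1, the enzyme that reduces testosterone to dihydrotestosterone, so it has no value here. Lhcgr had 5 probe sets, Scarb1 3, Star and Fdx1 2 each, and the other 5 genes 1 each.

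Testis RNA of male Sprague Dawley rats, which are outbred laboratory animals, was hybridised to 4 Affymetrix rat arrays of the U34 type, set A. The 2 control arrays came from rats given a control sheep immunoglobulin (IgG) for 4 days, and the 2 antibody arrays from rats given a sheep antibody against rat follicle-stimulating hormone (FSH) for 4 days. The labels name no surgery, no steroid treatment and no arm in which luteinising hormone (LH) was blocked. The age is not settled by the labels: the sample descriptions say day 18, the treatment protocol starts injections on day 18 and collects on day 22, and the series design starts them on day 14. Antibody replicate 2 has a title that names postnatal day 4, and its group was taken from its source name. The extraction protocol speaks of pools of about 20 ovaries, whereas each source name gives testis and 1 rat, so p-values measure the spread between RNA samples, which may be pools or single animals. For the labelled tissue, Shbg, which encodes the androgen-binding protein of Sertoli cells, was listed between 530.5 and 890.7 on arrays with medians of 36.5 to 40.4; without detection calls, absence of a marker could not be checked.

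In the testis, steroids are made by Leydig cells, which lie between the seminiferous tubules and carry the LH receptor. FSH acts on another cell, the Sertoli cell inside the tubules, from which the testicular FSH receptor is known. LH raises cAMP in the Leydig cell, cholesterol is brought to the inner mitochondrial membrane, and a short chain of enzymes turns it into pregnenolone and then into androgens. The passage across the mitochondrial membranes is the acutely regulated one and depends on the protein encoded by Star.

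Each array gave 1 linear intensity per probe set, and the arrays had been scaled to a trimmed mean of 125 before deposit. Changes are antibody minus control on the log2(intensity + 16) scale, with their standard error (SE), from limma fitted over 5252 probe sets that passed a brightness filter. This scale understates the change of dim probe sets. The filter kept the brighter probe sets, from the 40th percentile of the mean log2 value upwards (an intensity of 23.4), and 15 of the 17 probe sets passed. Where a mean intensity is given, its SD covers the 2 arrays of that group, and this small number limits every precision. Without detection calls, whether a probe set was above background is not known. In whole testis RNA, fewer cells of a type and less RNA per cell cannot be told apart.

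The changes of the members differed in sign and size. Star was the only member called: its transcript fell after the FSH antibody to 23.6% of the control intensity on probe set AB006007_s_at. That probe set passed the filter through its control arrays. The call was lost with quantile normalization, median centring, an added constant of 1 or no filter. The transcripts of Fdx1, which supplies electrons to the mitochondrial steroid enzymes, and of Scarb1, which imports cholesterol, had lower mean values after the antibody on all of their 5 probe sets, without passing. Cyp11a1, the enzyme that acts directly after Star, had higher values on both antibody arrays. Of the 15 tested probe sets, 1 had an adjusted p under 0.05 (limma with Benjamini-Hochberg adjustment), beside 0.267% of all tested probe sets. At an unadjusted p under 0.05 there were 6 lower, beside 4.13% of all tested probe sets, and 2 higher, beside 3.98%. Several of these probe sets read the same gene and are not independent. With 1 probe set per gene, the brightest, 2 of the 9 genes were lower at that unadjusted p and 1 was higher. Over all 3169 tested genes these counts were 123 and 126. The members were chosen with earlier results of these arrays known.

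Promoters of 5 of the 10 genes were matched in RefSeq's table for the rat build GRCr8 (Lhcgr, Cyp11a1, Fdx1, Hsd17b3 and Srd5a1); those of Star, Scarb1, Tspo, Cyp17a1 and Hsd11b1 were not used here. The 250 bases before the start of Fdx1 and of Cyp11a1 are shown because these partners in the same mitochondrial reaction had changes of opposite sign; Cyp11a1 was added to the display after its values were seen. Both are written 5′ to 3′ along the gene, and capitals mark AGGTCA, a core that many nuclear receptors, among them steroidogenic factor 1, can bind. Fdx1 lies on the minus strand (chr8:61183646-61183895) and Cyp11a1 on the plus strand (chr8:67318415-67318664).
Fdx1: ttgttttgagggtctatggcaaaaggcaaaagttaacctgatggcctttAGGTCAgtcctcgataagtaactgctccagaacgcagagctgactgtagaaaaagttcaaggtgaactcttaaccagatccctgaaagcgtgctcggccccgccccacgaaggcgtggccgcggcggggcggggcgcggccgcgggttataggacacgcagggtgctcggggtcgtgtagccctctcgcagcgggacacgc
Cyp11a1: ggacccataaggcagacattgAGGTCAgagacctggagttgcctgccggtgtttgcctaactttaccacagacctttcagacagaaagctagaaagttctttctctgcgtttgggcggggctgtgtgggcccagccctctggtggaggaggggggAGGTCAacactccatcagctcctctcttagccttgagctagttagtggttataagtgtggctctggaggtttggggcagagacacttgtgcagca
The Fdx1 window held AGGTCA 1 time and the Cyp11a1 window 2 times, both strands searched. Among all 33469 promoter windows of this length, 14.1% held it on either strand, and among the 5 members it was found in Lhcgr, Cyp11a1 and Fdx1. This motif was added after 3 others had been searched. AAGGTCA, the same core with 1 base more, was found in 3.99% of all windows. The GATA factor site AGATAA was found in 10.3%. The cAMP response element TGACGTCA was found in 1.59%. None of these 3 was in the window of any of the 5 members, which says only that the letters are not in these bases.

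**Figure D1:**
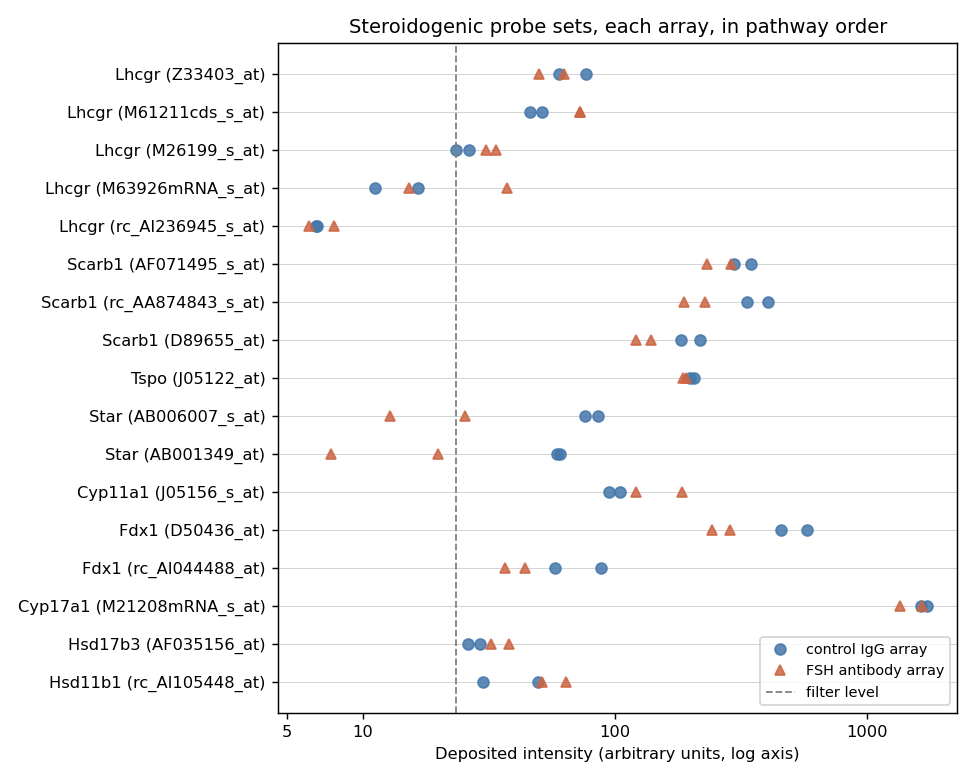
Deposited intensity (arbitrary units, log axis) of the 17 probe sets in pathway order, circles for the 2 control IgG arrays and triangles for the 2 FSH antibody arrays; the dashed line is the filter level of 23.4. The Star triangles (7.5 to 25.5) lie far left of the Star circles (59.2 to 86.2), the Fdx1 and Scarb1 triangles lie left of their circles by less, and the Cyp11a1 triangles lie right of theirs.

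The entry to the pathway is the LH receptor. Lhcgr encodes this receptor, through which LH stimulates the Leydig cell, and its 5 probe sets did not move together. Probe set M61211cds_s_at read 51.6 and 45.9 in the controls, against 72.6 and 72.9 with the antibody. Both antibody arrays were higher, and the change was 0.46 ± 0.18 (adjusted p = 0.580). Probe set M26199_s_at was at 26.5 and 23.5 in the controls and at 30.8 and 33.8 after the antibody (0.24 ± 0.21, adjusted p = 0.847). The brightest one, Z33403_at, went the other way, with 76.9 and 60.1 in the controls and 62.7 and 49.9 after the antibody. Its groups overlapped, and its change was −0.22 ± 0.20 (adjusted p = 0.847). The remaining pair was below the filter: M63926mRNA_s_at read 16.6, 11.2, 15.3 and 37.3, and rc_AI236945_s_at stayed between 6.1 and 7.7. No direction for Lhcgr follows from probe sets that disagree.

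Scarb1 encodes the scavenger receptor that takes cholesteryl esters from high-density lipoprotein into steroid-making cells. Its probe set rc_AA874843_s_at was at 335.3 and 405.1 in the controls against 228.2 and 187.9 with the antibody. The change was −0.79 ± 0.18 (adjusted p = 0.184). On D89655_at the controls were at 219.0 and 182.7 and the antibody arrays at 121.7 and 139.2 (−0.56 ± 0.18, adjusted p = 0.463). AF071495_s_at, the brightest, read 348.5 and 298.4 against 233.0 and 289.0 (−0.30 ± 0.18, adjusted p = 0.745). On each of the 3 probe sets both antibody arrays were below both controls. The size differed between probe sets, from 56.2% of the control mean on the first to 80.7% on the last.

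Inside the mitochondrion-bound part of the pathway, Tspo and Star differed. Tspo encodes a cholesterol-binding protein of the outer mitochondrial membrane, and its 4 values were close: 199.0 and 206.4 in the controls, 186.9 and 191.1 after the antibody. The antibody arrays were both lower, by little, and the change was −0.09 ± 0.17 (adjusted p = 0.929), with a 95% interval from −0.47 to 0.28.

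Star encodes the protein that delivers cholesterol to the inner membrane, where the first enzyme waits. Probe set AB006007_s_at read 75.9 and 86.2 in the controls (81.1 ± 7.28) and 25.5 and 12.8 after the antibody (19.2 ± 8.98). The groups were far apart, and both antibody arrays lay far below the lower control. The change was −1.49 ± 0.23, with a 95% interval from −2.0 to −0.97 and an adjusted p of 0.0418. Probe set AB001349_at was at 60.5 and 59.2 in the controls and at 19.9 and 7.5 after the antibody. It gave −1.38 ± 0.25 with an adjusted p of 0.0653, so it was just short of the threshold. Among all 5252 tested probe sets these were the 4th and the 6th most negative changes. Both Star probe sets passed the filter through their control arrays, and 3 of their 4 antibody intensities lay under the filter level.

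The call on Star depended on the setting. Its adjusted p on AB006007_s_at was 0.115 with quantile normalization, 0.0731 with each array centred on its median, 0.0570 with a constant of 1 and 0.224 with no filter, and leaving out control replicate 1 or control replicate 2 gave 0.367 or 0.625. The change itself was between −2.10 (constant of 1) and −0.81 (constant of 64) on that probe set, and between −2.19 and −0.68 on the other, in the same 2 settings.

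Cyp11a1 encodes the enzyme that cleaves the side chain of cholesterol to give pregnenolone. It was at 104.6 and 95.1 in the controls (99.9 ± 6.72) and at 185.1 and 121.3 after the antibody (153 ± 45.1). Both antibody arrays were higher, but they differed from each other by more than the controls did. The change was 0.52 ± 0.21 (adjusted p = 0.580), and leaving out antibody replicate 1 or antibody replicate 2 gave 0.25 or 0.80.

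Fdx1 encodes ferredoxin, also called adrenodoxin, the small iron-sulfur protein that hands electrons to Cyp11a1. Probe set D50436_at was at 456.8 and 582.5 in the controls (520 ± 88.9) and at 286.4 and 243.1 after the antibody (265 ± 30.6). Both antibody arrays were below both controls, at 50.9% of the control mean. The change was −0.93 ± 0.19 with a 95% interval from −1.35 to −0.50, and it did not pass (adjusted p = 0.116). The second probe set, rc_AI044488_at, read 57.8 and 88.6 against 36.7 and 44.2, again with separate groups (−0.64 ± 0.22, adjusted p = 0.534). Without control replicate 2 this second change was −0.39.

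The later enzymes showed smaller differences. Cyp17a1 encodes the enzyme that turns pregnenolone and progesterone into androgen precursors. It read 1730.4 and 1651.1 in the controls and 1361.0 and 1653.3 after the antibody. Antibody replicate 2 lay between the controls, and the change was −0.17 ± 0.17 (adjusted p = 0.856). Hsd17b3 encodes the testicular enzyme that reduces androstenedione to testosterone. Its intensities were 29.3 and 26.2 in the controls and 32.2 and 37.9 after the antibody, not far above the filter level, and its change was 0.22 ± 0.21 (adjusted p = 0.851).

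Hsd11b1 encodes an enzyme that interconverts active and inactive glucocorticoids and is known from rat Leydig cells. Its probe set read 30.0 and 49.5 in the controls and 51.3 and 64.2 after the antibody. The lower antibody array was only just above the higher control, and the change was 0.42 ± 0.23 (adjusted p = 0.683). It ranged from 0.17 without control replicate 1 to 0.68 without control replicate 2.

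**Figure D2:**
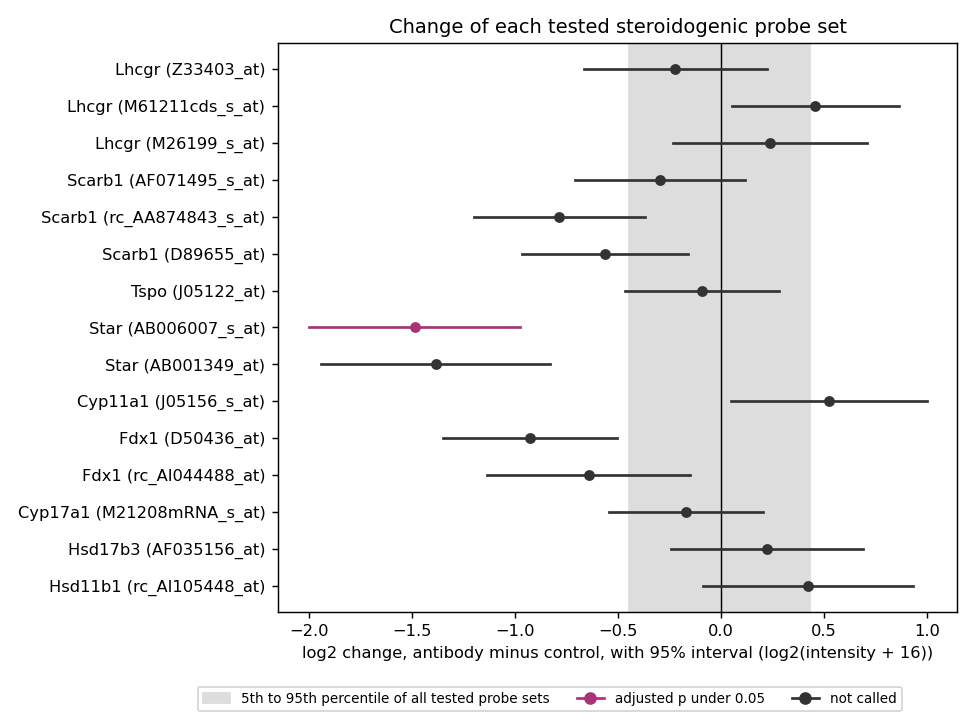
The log2 change (antibody minus control, points) with its 95% interval (lines) for the 15 tested probe sets in pathway order; grey marks the 5th to 95th percentile of all 5252 tested probe sets (−0.45 to 0.43). Both Star probe sets lie near −1.4 and 1 of them was called, those of Fdx1 and Scarb1 lie left of 0, and Cyp11a1 lies at 0.52.

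With 1 probe set per gene, the brightest over the 4 arrays, 6 of the 9 genes had a negative change and 3 a positive one, with a median of −0.17. Over all 3169 tested genes 44.3% were negative, with a median of 0.03. The 2 groups did not overlap for 7 of the 9 genes, 4 lower (Scarb1, Tspo, Star and Fdx1) and 3 higher (Cyp11a1, Hsd17b3 and Hsd11b1), beside 37.5% of all tested genes in either direction. The median moved with the settings, from −0.22 with median centring to −0.08 without antibody replicate 1. None of the 15 member probe sets changed direction in any setting that tested it, quantile normalization and median centring included.

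Each member's brightest probe set was also set against Cyp11a1 on the same array, to give the size by which 2 transcripts changed unequally. Cyp11a1 had the most positive change of the 9 genes, so the 8 shifts are negative by this choice and share its values; their sign, and whether their groups separate, carries nothing about the other gene. For Star the difference of log2 values from Cyp11a1 was −0.26 ± 0.19 (SD, n = 2) in the controls and −2.27 ± 0.02 with the antibody. The shift was thus −2.01, and for Fdx1 it was −1.45. Both sizes include the Cyp11a1 change of 0.52, which was not called. The sizes depended on the added constant: with a constant of 1 they were −2.68 for Star and −1.55 for Fdx1, and with a constant of 64 they were −1.20 and −1.21, so that Star no longer had the larger one. The two-sided exact permutation p was 0.333 for both, the smallest that 2 arrays against 2 allow, and 0.444 after adjustment over the 8 comparisons. This p is reached whenever the groups separate, so it too carries nothing about Star or Fdx1.

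For Scarb1, Cyp17a1 and Tspo the size depended on the antibody array used. That of Scarb1 (−0.82) became −0.40 when antibody replicate 1 was left out and −1.24 when the other was, that of Cyp17a1 (−0.69) was −0.28 and −1.11, and that of Tspo (−0.61) was −0.32 and −0.90. Lhcgr had a shift of −0.75 on Z33403_at, the only 1 of its 3 tested probe sets with a negative change of its own, so this shift holds for that probe set alone. Hsd17b3 (−0.30) and Hsd11b1 (−0.10) had overlapping groups.

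**Figure D3:**
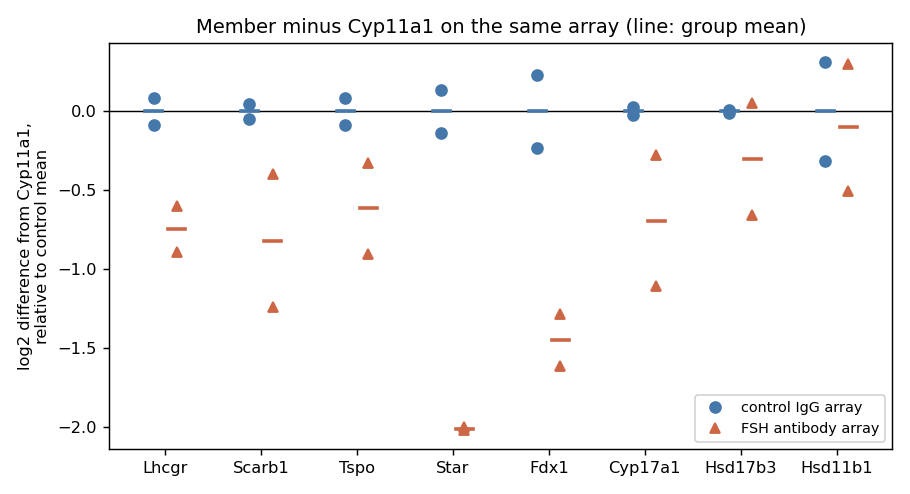
For each of 8 members, log2(intensity + 16) minus that of Cyp11a1 on the same array, set to 0 at the control mean; circles are control IgG arrays, triangles FSH antibody arrays and short lines group means. With this constant Star has the lowest antibody mean (−2.01) and Fdx1 the next (−1.45), an order that turns with a constant of 64 (−1.20 and −1.21), and the antibody arrays of Scarb1, Tspo and Cyp17a1 lie far apart.

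The pattern of Star over the 4 arrays was set against all other tested genes by the Euclidean distance of log2 deviations from each probe set's mean. The second Star probe set was at a distance of 0.17. The nearest of 3168 other genes were Alas2, an erythroid enzyme of heme synthesis (0.24), Pde4b, a phosphodiesterase that breaks down cAMP (0.33), Arl2, a small GTPase (0.36), Mia (0.39) and Aqp8, a water channel (0.46). Pde4b was at 252.6 and 223.4 in the controls and at 113.3 and 72.4 after the antibody (−1.25 ± 0.21, adjusted p = 0.0561). Each gene stood in this ranking with its nearest probe set. Of the pathway, Fdx1 ranked 15th at 0.62, Scarb1 28th at 0.73 (rc_AA874843_s_at; its brightest probe set was at 1.35), and Cyp11a1 3047th at 2.02. The measure is a description over 4 arrays and largely follows the size of the decrease. Among all tested probe sets those of Aqp8, Alas2, Arl2, Pde4b and Mia had the 5th, 7th, 9th, 12th and 18th most negative changes.

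Genes around the pathway were taken from lists, each gene by its brightest probe set. Of 11 tested other steroid enzymes none was called, 6 had negative and 5 positive changes, and the median was −0.03. Cyp21a1, which makes corticosteroid precursors in the adrenal, was at 33.4 and 27.9 in the controls and at 19.1 and 16.6 after the antibody (−0.46 ± 0.22, adjusted p = 0.634). Both antibody values lay under the filter level of 23.4, so this probe set passed the filter through its control arrays. Hsd17b4, a peroxisomal enzyme, gave −0.24 by its brightest probe set, while the other 3 gave 0.13 to 0.35, and Hsd3b7 gave −0.11.

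The proteins that pass electrons to the microsomal steroid enzymes had no called gene among 4 tested (1 negative, 3 positive, median 0.04). Cyb5a, cytochrome b5, was at 181.3 and 290.1 in the controls and at 107.1 and 273.1 after the antibody (−0.38 ± 0.36), and its second tested probe set gave 0.09. Por, the P450 reductase, gave 0.14, Cyb5r3 0.05 and Cyb5b 0.03, the Cyb5r3 probe sets spanning −0.35 to 0.10. These values lie beside that of Fdx1, the mitochondrial carrier, whose brightest probe set gave −0.93.

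Among 7 tested genes of cholesterol supply none was called (3 negative, 4 positive, median 0.03). Lipa, the lysosomal lipase that frees cholesterol from its esters, was at 215.3 and 242.8 in the controls and at 430.5 and 474.5 after the antibody (0.94 ± 0.17, adjusted p = 0.0703), with 0.72 and 0.57 on its other probe sets. Dbi, the acyl-CoA binding protein that is also a Tspo ligand, gave −0.26, and Lipe, the hormone-sensitive lipase, 0.13.

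Among 17 tested genes of LH signalling and steroidogenic transcription none was called (10 negative, 7 positive, median −0.05). Pde4b, above, had the smallest p. Nr4a1, a nuclear receptor induced by cAMP, gave −0.87 ± 0.35 by its brightest probe set, while the other gave 0.12. Egr1 gave 0.43 on its brightest and −0.08 to 0.38 on the other 3. Nr5a1, which encodes steroidogenic factor 1, gave 0.09, Gata4 0.14 and Nr0b1, a repressor of Star, −0.04; these 3 were picked out after their values were seen.

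Markers of the cells that could carry these transcripts were read from the same arrays. Of the Leydig cell markers outside the pathway, 6 of the 9 listed were on the array and all 6 were tested. Of these 5 had positive changes, with a median of 0.39, and none was called. With antibody replicate 1 left out the median came to 0.67, and with antibody replicate 2 left out to 0.12. Their summed intensity was 810 to 830 in the controls and 946 to 1257 after the antibody. That of the 9 pathway genes was 3051 to 3056 in the controls and 2424 to 2663 after the antibody. Each such sum follows its brightest genes. In the pathway sum Cyp17a1 held 1651.1 to 1730.4 in the controls and 1361.0 to 1653.3 after the antibody, with overlapping groups. In the Leydig sum Pdgfra held 371.3 to 383.4 and 426.9 to 592.8. Gsta3, a glutathione transferase with a part in steroid isomerisation, was at 34.9 and 23.9 against 69.9 and 71.1 (0.94 ± 0.20, adjusted p = 0.142). Pdgfra gave 0.40 and Igf1 0.39 by their brightest probe sets. Their other tested probe sets gave 0.08 for Pdgfra, and 0.07 and 0.58 for Igf1. Prlr, the prolactin receptor, was the 1 with a negative change (−0.15) and is named after its value was seen, as is Cyp11b2 below. The change of Star had the sign opposite to that of the other 5. Their part in the Star result was not tested. Of the 5 adrenal cortex markers 2 were on the array, Cyp21a1 above and Cyp11b2, which stayed between 5.6 and 10.4. Their summed intensity was 33.7 to 39.0 in the controls and 25.0 to 29.5 after the antibody, and their part in it was not tested either.

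The other cell types were read in the same way. The 9 tested Sertoli cell markers had 4 negative and 5 positive changes (median 0.03), with Inha at −0.90, Shbg at −0.66 and Ctsl at 0.56, and none was called. On their other tested probe sets Inha gave −0.49 and Ctsl 0.67. The summed intensity of the Sertoli cell markers was 10525 to 10908 in the controls and 10003 to 10965 after the antibody. Of this Clu, the brightest, held 6770 to 6776.2 in the controls and 6439.6 to 7459.2 after the antibody. Of the 3 tested erythroid markers Alas2 fell (−1.38 ± 0.21, adjusted p = 0.0418), Hbb gave −0.43 and Hbb-b1 −0.24. The Alas2 call was lost, as that of Star was, with quantile normalization (adjusted p = 0.117), median centring (0.0775), a constant of 1 (0.0516), no filter (0.224) and without control replicate 1 (0.344) or control replicate 2 (0.593), and here also with no intensity trend (0.0618). The summed erythroid intensity, at 2060 and 3566 in the controls and 1864 and 2194 after the antibody, overlapped between the groups.

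Macrophages lie against Leydig cells in the testis. Of their 5 tested markers 2 were negative and 3 positive (median 0.02), with C1qb at −0.71 (brightest probe set) and 0.06 (second probe set), Lyz2 at 0.60, Cd14 at 0.39, Ptprc at −0.14 and C1qc at 0.02. The brightest C1qb probe set passed the filter through its control arrays, as both of its antibody values (18.7 and 17.3) lay under the filter level. The 3 tested endothelial markers were all positive by their brightest probe sets (median 0.10), with Flt1 at 0.40, Nos3 at 0.10 and Pecam1 at 0.09. Other tested Nos3 probe sets gave −0.03 and 0.47. The 5 tested myoid and smooth muscle markers had a median of −0.03, with Myl9 at −0.30, Cnn1 at 0.33, Tagln at −0.26, Acta2 at 0.12 and Myh11 at −0.03. Other tested probe sets gave −0.14 and 0.05 for Acta2, −0.13 for Myl9, −0.09 for Tagln and −0.13 for Myh11. The 8 tested germ cell markers had a median of −0.28 and 6 negative changes, with Ddx4 at −0.34, Pdha2 at −0.43 and Sycp3 at −0.29. That median was −0.52 without antibody replicate 1, −0.055 without antibody replicate 2, −0.12 without control replicate 2 and −0.42 without control replicate 1. Their summed intensity was 1583 to 2386 in the controls and 1249 to 1871 after the antibody. No marker of these 4 cell types was called, and the part of any of them in the Star, Fdx1 and Scarb1 values was not tested.

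**Figure D4:**
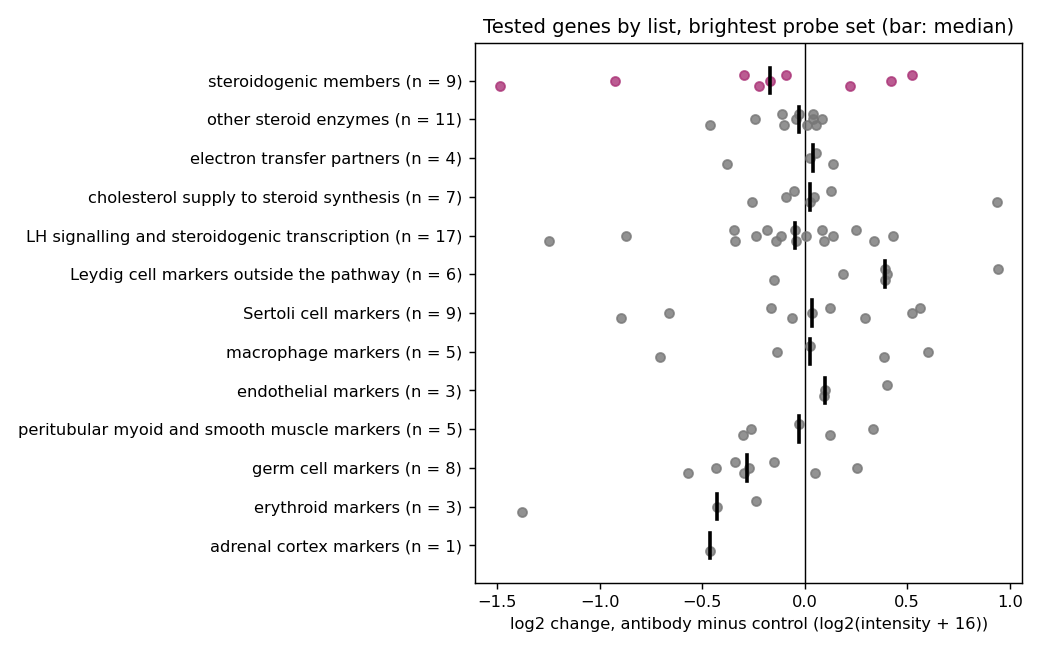
The log2 change (antibody minus control) of each tested gene by its brightest probe set, 1 point per gene, in the pathway (coloured) and in 12 lists of related genes and cell type markers (grey); bars are medians and n is the number of tested genes. The pathway spreads from −1.49 (Star) to 0.52 (Cyp11a1), the other steroid enzymes lie between −0.46 and 0.09, and the Leydig cell markers outside the pathway have a median of 0.39 (0.12 without antibody replicate 2).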

How the data were processed

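The deposited table holds array intensity values on a linear scale, 1 per probe set and array. No source used here names the software, the background correction or detection calls. With 2% of probe sets trimmed at either end, the mean was 125 on every array, so the deposited intensities had already been scaled. Array medians were 36.5 to 40.4, and the values were normalized no further. Of 8799 probe sets 59 controls were left out. Symbols came from a platform annotation and were updated through Entrez identifiers with RefSeq's GRCr8 table: 7018 probe sets had 1 symbol (6994 updated, 24 kept), 308 several and 1473 none.

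Groups were compared on log2(intensity + 16) by lmFit and eBayes, the prior variance following intensity (limma 3.58.1, R 4.3.3). Tests were two-sided and adjusted by Benjamini-Hochberg over all 5252 tested probe sets and a threshold of 0.05. Tested on simulated data for this comparison (20 data sets, 200 changes among 5252 probe sets), the fit recovered 69.6% of 2-fold and 99.4% of 4-fold changes, and 5.06% of its calls were false. The arrays themselves gave 14 calls, so these rates hold for the simulated setting and not for any single call here.

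All member probe sets are named. Of each list the genes named are called ones, the 3 with the smallest p, or all if 5 or fewer were tested; for Star, the 5 nearest genes. Prlr, Nr5a1, Gata4, Nr0b1, Cyp11b2 and Clu fall outside this rule and were named after their values were seen. The members, lists and rule were chosen with earlier results of these data known. Replicate numbers did not pair the arrays: deviations of same-numbered arrays had a correlation of 0.0039. No gene positions are given for probe sets, since no genome build is named for them.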

Additional observations from a re-analysis of the deposited data

How the results depend on the processing

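The alternatives were planned; a constant of 1 or 64, the filters, no intensity trend and the scalings were each changed alone. With no filter or a higher one the number of tested probe sets changes, and at the 60th percentile neither Star probe set was tested; a fit on 3 arrays has 1 residual degree of freedom and takes the single array to vary as the pair does, so its p-values rest mostly on the variance prior. The replicate block also leaves 1 residual degree of freedom, so its p-values rest mostly on the variance prior too. For the other changes the cause was not tested.

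The count of called probe sets over the whole table was 14. It was 0 with quantile normalization (smallest limma adjusted p 0.0615, 420 with an unadjusted p under 0.05), 4 with median centring, 0 with no filter (702 with an unadjusted p under 0.05), 39 with the replicate block, and 0 to 153 when 1 array was left out (0 without control replicate 1 and without control replicate 2, where 370 and 270 had an unadjusted p under 0.05). At an unadjusted p under 0.05 there were 217 lower and 209 higher. The share of lower among those with an unadjusted p under 0.05 was 66.3% with median centring and 36.6% with no filter.

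Of the members, 1 probe set was called. The count was 0 with quantile normalization, median centring, a constant of 1, no filter and the 60th percentile filter, 2 with a constant of 64 (both of Star), 3 with the replicate block (Star and Fdx1) and 0 to 4 when 1 array was left out. It was 4 without antibody replicate 1 (Star, Fdx1 and Scarb1) and 3 without antibody replicate 2, but 0 without either control array. The samples share only a number, so the block describes no pairing of animals that the labels name.

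The members' median of −0.17 was −0.12 with quantile normalization, −0.22 with median centring, −0.093 with all probe sets of a gene averaged and −0.20 to −0.078 when 1 array was left out. The change minus that of Cyp11a1 turned to 0.21 (without control replicate 2) and 0.30 (without antibody replicate 1) for Hsd11b1 and to 0.056 (without antibody replicate 1) for Hsd17b3; over the arrays left out it spanned −0.50 to 0.30 for Hsd11b1 and −0.66 to 0.056 for Hsd17b3. Leaving out 1 array also moved the list medians: erythroid from −0.43 to between −0.85 and −0.0042, macrophage from 0.02 to between −0.16 and 0.22, electron transfer from 0.04 to between −0.16 and 0.28, smooth muscle from −0.03 to between −0.25 and 0.07, LH signalling from −0.05 to between −0.12 and 0.06, and endothelial from 0.10 to between 0.09 and 0.21. How far background bears on the dim Lhcgr, Hsd17b3 and Star values is not known, since no detection calls were used.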
